A study of Mus musculus with 6 samples.

Results

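The 7 miRNA reporters described here mark cells that a culture of vascular smooth muscle cells (VSMCs) should not hold. They are mmu-miR-126-3p and mmu-miR-126-5p of endothelial cells, mmu-miR-142-3p, mmu-miR-142-5p, mmu-miR-223 and mmu-miR-150 of leukocytes, and mmu-miR-451 of red blood cells, written below without the prefix for mouse. They were taken by name, all 7 were among the 1078 mouse reporters of the arrays, and each was read against the background of its own array as a measure of endothelial or blood cell RNA. VSMCs contract the wall of arteries. Those studied here had been taken from C57BL/6 mice, aged 8 weeks, at the abdominal aorta, and had been passaged in culture before harvest. Untreated control cultures (n = 3) were set beside cultures given TNF-α, an inflammatory cytokine (n = 3), grown and harvested independently. All 6 samples shared strain, age, vessel and cell type. No dose or duration of TNF-α is given in the sources used here. Only miR-126-3p was read above background on most arrays, and 5 of the 7 markers were above it on none, as were 65.8% of all reporters.

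A miRNA is cut from a hairpin precursor, whose arms are named 5p and 3p, and one arm usually accumulates. It pairs with target mRNAs mainly through its seed, the bases at positions 2 to 8, and lowers their output. miR-126 is made from the endothelial gene Egfl7 and supports VEGF signalling and the integrity of vessels. miR-142 is found across blood cell lineages, miR-223 is a miRNA of granulocytes and other myeloid cells, and miR-150 is high in mature lymphocytes and restrains the transcription factor Myb. miR-451 is cut by Ago2 rather than Dicer and is abundant in erythroid cells, where it is transcribed with miR-144. Because these miRNAs are high in their own cell types and low in smooth muscle, they are widely used to look for endothelial or blood cell carry-over in preparations of the vessel wall.

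RefSeq's miRNA table (GRCm38.p6) held the mature sequence of 5 of the 7 members, matched by gene symbol and arm. They are shown 5′ to 3′ to identify what each reporter reads, with the seed in capitals. miR-126-5p and miR-150 are named only.
miR-126-3p (chr2:26591402-26591423, plus strand): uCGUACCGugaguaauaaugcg
miR-142-3p (chr11:87756903-87756925, plus strand): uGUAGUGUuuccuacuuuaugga
miR-142-5p (chr11:87756867-87756887, plus strand): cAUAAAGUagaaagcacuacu
miR-223 (chrX:96242884-96242905, plus strand): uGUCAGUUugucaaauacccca
miR-451 (chr11:78073186-78073207, plus strand): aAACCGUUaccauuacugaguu
The 5 sequences had 5 distinct seeds, so no pair of them shares a seed. Their share of G and C ran from 33.3% in miR-142-5p to 45.5% in miR-126-3p. The miR-126 hairpin is shown because its arms read differently on these arrays, with the 3p arm in capitals.
Mir126a hairpin (chr2:26591357-26591429, plus strand): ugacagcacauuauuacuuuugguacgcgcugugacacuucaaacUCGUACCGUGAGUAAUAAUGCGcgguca
In RefSeq's gene table the Mir126a gene lies within Egfl7.

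Every value below starts from the density of a reporter, a linear fluorescence intensity that still contains the background of the array. The background peak, the commonest density on an array, lay at 68.4 to 76.8 in controls and, with TNF-α, at 82.0 to 91.4. The background limit was set at this peak plus 3 times the SD of the values below it, and lay 22.4 to 27.0 above the peak on control arrays and 35.8 to 40.3 above it with TNF-α. A reporter thus had to give more signal to count as above background on a TNF-α array than on a control array. Of all reporters, 26.3% to 30.1% exceeded the limit in controls, and with TNF-α 21.2% to 23.2% did. Whether the background differs through TNF-α or through the arrays cannot be told apart, because each group forms its own set of arrays. In RNA from whole cultures, fewer cells of a type and less RNA per cell cannot be told apart either.

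The smooth muscle markers were read clearly. miR-143 and miR-145, which are made from one transcript and promote the contractile state, exceeded the limit on 6 of 6 arrays, while the minor arms miR-145* and miR-143* did so on 1 and 0 arrays. Both abundant marker miRNAs of the labelled cell type were thus read, which does not by itself show what cells the cultures held. The summed density of the 7 endothelial and blood cell markers was 558 to 611 in controls and 577 to 678 with TNF-α, background included. After removal of the background peak that sum was 46.1 to 83.3 in controls and -20.9 to 38.4 with TNF-α. Of its 42 readings, 24 lay below the peak. A lower sum was not particular to these markers. For epithelial markers, described below, it was 112 to 149 in controls and 37.8 to 87.4 with TNF-α. Striated muscle, neural, and liver and gut markers also had lower sums without overlap. For smooth muscle, mesenchymal, stem cell and further blood cell miRNAs the groups overlapped.

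**Figure D1:**
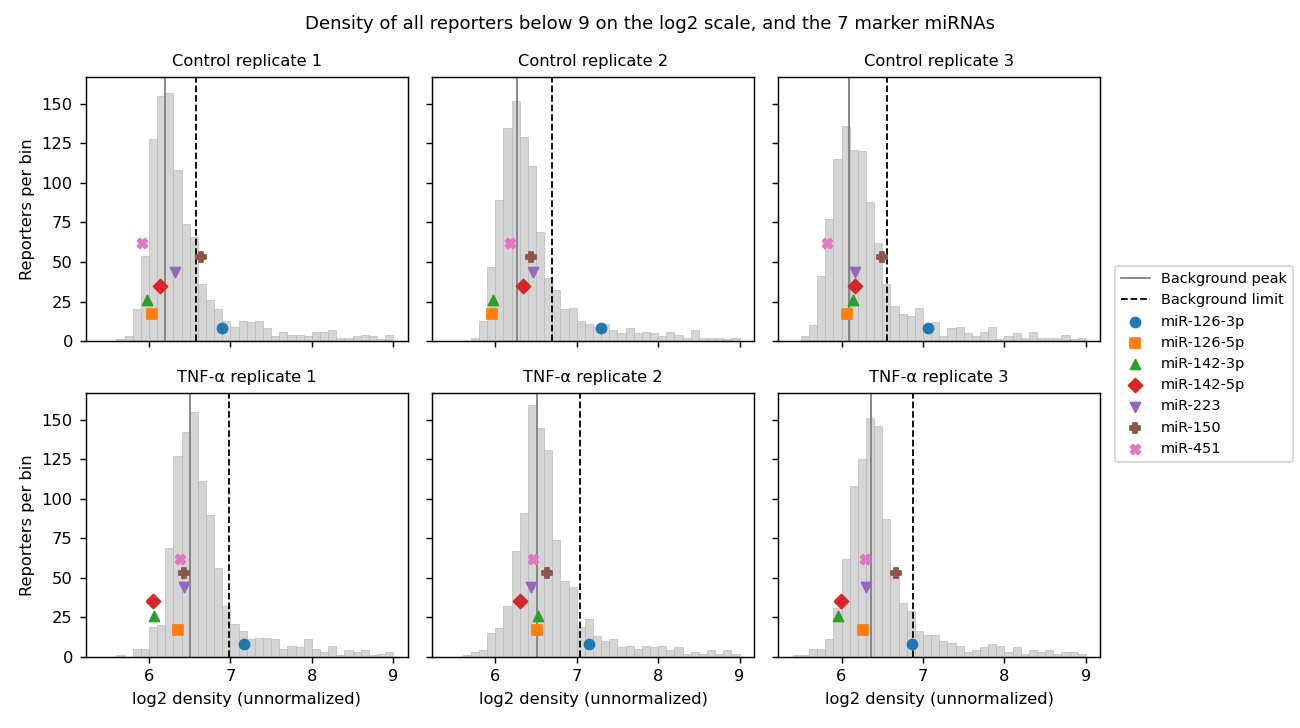
Histograms of log2 density for all reporters under 9 on that scale, one panel per array (3 control, 3 TNF-α), with the background peak as a solid line and the limit as a dashed line. The height of the 7 coloured symbols has no meaning; their position shows that miR-126-3p lay right of the limit on every array except TNF-α replicate 3 and that the others lay within the background hill, except miR-150 on control replicate 1.

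miR-126-3p, the endothelial arm that represses inhibitors of VEGF signalling, had densities of 119, 157 and 134 on control replicates 1, 2 and 3. With TNF-α its densities were 144, 142 and 117. The groups overlapped, and the highest and the next lowest of the 6 readings were both controls. The control readings exceeded their limits of 95.4, 104 and 93.9 by 23.7, 53.6 and 39.8. The TNF-α readings exceeded theirs by 17.3 and 10.1 on replicates 1 and 2 and fell short by 1.43 on replicate 3. So miR-126-3p was above background in every control culture and in 2 of 3 TNF-α cultures, by a margin that was smaller with TNF-α.

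Measured in SDs of the background below the peak, miR-126-3p stood 6.17, 8.96 and 7.68 above the peak in controls and 4.45, 3.75 and 2.88 above it with TNF-α. On that scale the groups did not overlap, but the background SD itself was larger on every TNF-α array. In background SDs 35.0% of all reporters were likewise lower on every TNF-α array. As plain density above the peak the values were 46.0, 80.5 and 65.3 in controls and 53.2, 50.4 and 34.6 with TNF-α, and the groups overlapped (exact two-sided permutation test, p = 0.3, n = 3 per group, where 0.1 is the smallest value possible). The reporter ranked between percentile 77.9 and percentile 82.8 of its array on all 6 arrays. The SD deposited with each of its densities was 17.2 to 21.3, so its readings on TNF-α replicates 2 and 3 lay within 1 such SD of the limit.

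miR-126-5p, the other arm of the same hairpin, which is known to restrain Dlk1 in endothelial cells, exceeded the limit on 0 of 6 arrays. Its densities were 65.7, 62.0 and 67.1 in controls and 81.9, 91.0 and 76.8 with TNF-α. The TNF-α densities were all higher, as for 38.2% of all reporters. Every one of the 6 readings nonetheless lay below the background peak of its own array, at -14.8 to -0.39 relative to it. In background SDs it stood at -0.98, -1.64 and -0.15 in controls and at -0.75, -0.03 and -0.43 with TNF-α, and the groups overlapped (exact two-sided permutation test of the density above the peak, p = 0.6, n = 3 per group). Of the arms of this hairpin, the 3p arm shown in capitals exceeded the limit and the 5p arm was not detectable at this background.

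**Figure D2:**
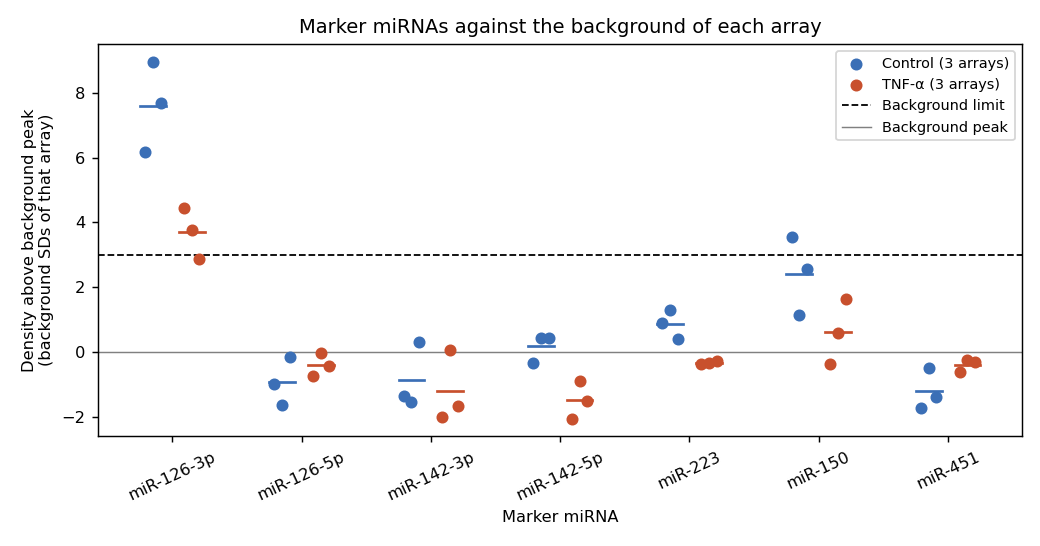
Density above the background peak in background SDs of the same array (vertical axis) for each marker miRNA (horizontal axis), with 1 point per array, blue for control and red for TNF-α, and short bars at group means. The dashed line at 3 is the limit; of 42 points, 5 for miR-126-3p and 1 for miR-150 lie above it.

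Among the leukocyte markers, both arms of miR-142 and miR-223 exceeded the limit on 0 of 6 arrays. miR-142-3p, which is abundant throughout the blood lineages, gave densities of 62.8, 63.0 and 70.8 in controls and 66.8, 92.0 and 62.0 with TNF-α. TNF-α replicate 2 was the highest of the 6, yet it lay only 0.66 above the background peak of its array. The groups overlapped, and on 4 arrays the reporter stood at -24.1 to -10.3 relative to the peak (exact two-sided permutation test over all 6 arrays, p = 0.5, n = 3 per group).

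miR-142-5p comes from the same hairpin and has a different seed. Its densities were 70.5, 80.8 and 72.0 in controls and 66.3, 79.3 and 63.8 with TNF-α, so the groups overlapped. Relative to the background peak the readings were -2.51, 3.95 and 3.65 in controls and -24.6, -12.1 and -18.2 with TNF-α. On that scale all TNF-α readings were lower than all controls (exact two-sided permutation test, p = 0.1, the smallest value 3 against 3 allows). The same held for 22.4% of all reporters. The reporter ranked at percentile 24.5 to 46.0 of the control arrays and at percentile 1.86 to 13.7 of the TNF-α arrays, which places it inside the background on all of them.

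miR-223, which tempers the activation of neutrophils and macrophages, gave 79.7, 88.3 and 71.7 in controls and 86.5, 86.7 and 78.7 with TNF-α. The densities overlapped. Above the background peak it stood at 6.68, 11.5 and 3.32 in controls and at -4.42, -4.64 and -3.28 with TNF-α. Here too the groups separated only after the background was taken off (exact two-sided permutation test, p = 0.1, the smallest possible). On that scale 22.4% of all reporters were likewise lower on every TNF-α array. The reading nearest to its limit, on control replicate 2, stood at -15.5 relative to it.

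miR-150, the lymphocyte marker, gave 99.5, 87.0 and 90 in controls and 86.5, 99.2 and 101 with TNF-α. The groups overlapped, and the lowest and the highest readings were both from TNF-α cultures. Only control replicate 1 exceeded its limit, by 4.02, which is less than the SD of 18.9 deposited with that reading. Control replicate 3 stood at -3.88 relative to its limit and the remaining 4 readings at -40.2 to -16.5. In background SDs miR-150 was at 3.54, 1.13 and 2.54 in controls and at -0.37, 0.58 and 1.62 with TNF-α, and the density above the peak overlapped between groups (exact two-sided permutation test, p = 0.2, n = 3 per group). With 1 of 6 readings above the limit, miR-150 was at the edge of background in controls and within it with TNF-α, and no fold is given.

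miR-451, the erythroid marker, gave 60.2, 72.4 and 56.5 in controls and 83.3, 88.0 and 78.1 with TNF-α. All TNF-α densities were higher than all controls, as for miR-126-5p and for 38.2% of all reporters. All 6 readings nonetheless lay below the background peak, at -12.9 to -4.41 relative to it in controls and at -7.57 to -3.32 with TNF-α, and on that scale the groups overlapped (exact two-sided permutation test, p = 0.2, n = 3 per group). Its genomic neighbour miR-144 and the other arm miR-144* also exceeded the limit on 0 of 6 arrays, with densities of 66.6 to 69.4 and 63.6 to 73.4 in controls. No reporter of the miR-144 and miR-451 cluster was thus detectable at this background.

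Counted together, 6 of the 42 readings of the 7 markers exceeded the limit (14.3%), 19.05% of the control readings and 9.52% of the TNF-α readings. Over all reporters 25% of readings did, 27.9% in controls and 22.1% with TNF-α. Above the limit on no array were 5 of 7 markers and 65.8% of all reporters, and above it on at least 3 arrays were 1 of 7 markers and 25.8% of all reporters. Lying below the limit on every array was thus common among reporters in general.

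The authors' deposited table of processed intensities, from which a background had been removed, gave a similar picture. Of the 42 marker readings in the authors' deposited table, 16 (38.1%) sat at the floor value of 0.01, against 23.4% of all readings. In the authors' deposited table miR-126-3p was above the floor on all arrays, at 49.98, 83.7 and 64.6 in controls and 60.4, 53.2 and 32.9 with TNF-α. miR-150 was at 30.4, 15.6 and 26.6 in controls and 2.90, 12.1 and 18.1 with TNF-α in the authors' deposited table. By contrast, miR-126-5p was at the floor on 5 arrays, miR-142-3p on 4, miR-142-5p and miR-451 on 3 each and miR-223 on 1, and none of these 5 exceeded 13.6 on any array of the authors' deposited table.

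**Figure D3:**
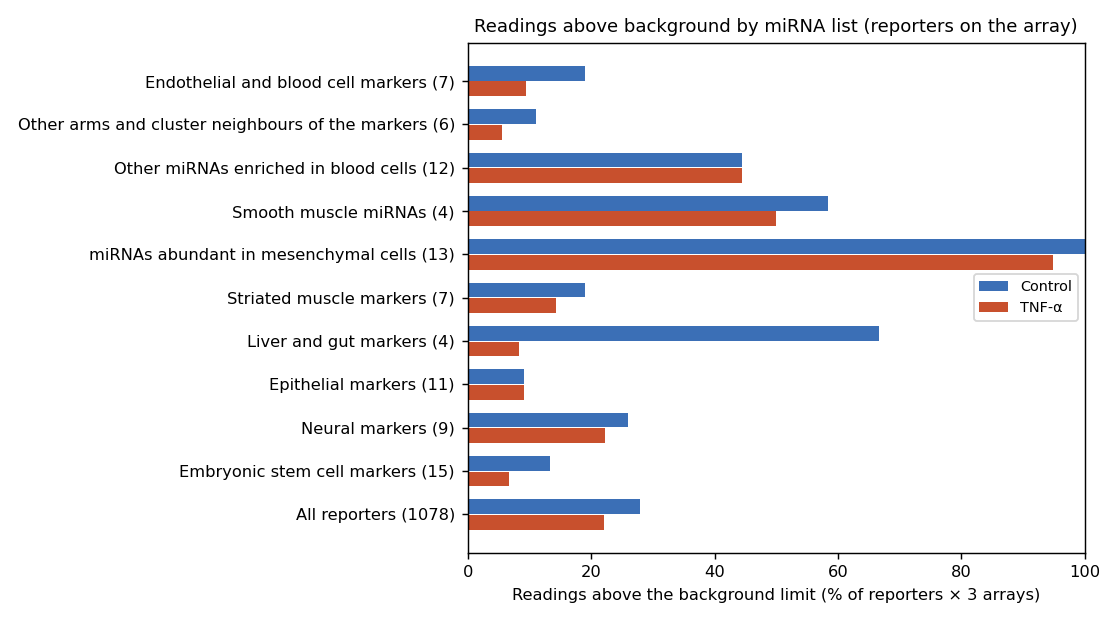
Share of readings above the background limit (horizontal axis, percent of reporters times 3 arrays) for each list of miRNAs, with the number of reporters in brackets, blue for control and red for TNF-α. The 7 endothelial and blood cell markers are at 19.05% and 9.52%, below the 27.9% and 22.1% of all reporters, while miRNAs abundant in mesenchymal cells are at 100% and 94.9%.

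Lists of markers of other tissues were read in the same way. Of these, miR-206, miR-182, miR-128, miR-218 and miR-290-5p were above the limit on 6 of 6 arrays. The lists therefore cannot stand for tissues absent from the cultures. Of striated muscle markers 16.7% of readings exceeded the limit, carried by miR-206, and of epithelial markers 9.09%, all from miR-182. Embryonic stem cell markers stood at 10%, mainly from miR-290-5p and miR-292-5p, and neural markers at 24.1%, mainly from miR-128 and miR-218. Liver and gut markers stood at 37.5%, from miR-192, miR-194 and miR-215, with 66.7% in controls and 8.33% with TNF-α. In every one of these lists at least 1 reporter was above the limit on no array (5 of 7 for striated muscle, 10 of 11 for epithelium, 13 of 15 for stem cells, 6 of 9 for neural tissue and 1 of 4 for liver and gut). The test of TNF-α described next covered 3 reporters of the striated muscle list and 4 of liver and gut. It also covered 3 of epithelium, 5 of neural tissue and 7 of stem cells. Of these, miR-206, miR-122, miR-194, miR-215, miR-218 and miR-290-5p passed as lower and miR-302b as higher. Of all tested reporters 9.81% passed as lower and 12.9% as higher. miR-122 and miR-302b were above the limit on 0 arrays. miR-302b entered that test only through its TNF-α arrays, every control being under the filter, and its call was lost with no filter (adjusted p = 0.0524 by limma). Of 3 smooth muscle reporters tested, miR-145* passed as lower, entering only through its control arrays. Of 13 mesenchymal reporters tested, miR-199a-5p, miR-199b* and miR-34a passed as higher. Other scalings were not run for the calls of these lists. The share of readings of the endothelial and blood cell markers lay among the shares of these lists, and no test of the difference between lists was made.

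For the effect of TNF-α, the densities were background-corrected, quantile normalized and tested with limma's two-sided moderated test. Tests were confined to reporters with a corrected density of 32 or more on at least 3 arrays. Of the 642 reporters tested, 22.7% passed an adjusted p of 0.05, 12.9% as higher and 9.81% as lower. Of the 2 markers tested, 0 passed, and 0 also did at an unadjusted p under 0.05, against 35.5% of all tested reporters. The 7 markers had a median log2 change of -0.16, and all 1078 reporters one of -0.00025. No fall of the markers as a group is read from this, since 5 of the 7 were above the limit on no array. The median is the value of miR-150, which turned to 0.0098 without normalization and 0.12 with median scaling. There the median of all tested reporters was 0.14 and 0.25. The count of 146 reporters became 84, 70 or 91 when control replicate 1, 2 or 3 was left out, and 88, 79 or 83 when the TNF-α array of that number was, with 0 markers among them each time.

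miR-126-3p changed by -0.17 ± 0.10 (log2, SE, n = 3 per group; limma adjusted p = 0.267), with a 95% interval of -0.40 to 0.06. Its sign turned with scaling to the median of reporters above background (0.06). miR-150 changed by -0.16 ± 0.12 (adjusted p = 0.397), with an interval of -0.43 to 0.11, and its sign turned without normalization and with median scaling. Neither interval reaches a 1.5-fold change, but an offset of 50 was added to each density, which understates changes of reporters this dim.

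For the 5 markers below the filter, the same model fitted to all 1078 reporters gives values for a signal that was not above background. miR-142-5p was lower by this fit (-0.32 ± 0.09, limma adjusted p = 0.0381), as were 7.24% of all reporters, 15% being past the threshold in either direction. At an unadjusted p under 0.05, 2 markers passed, miR-142-5p and miR-223, against 30.5% of all reporters. The call of miR-142-5p was lost under 11 of 15 alternatives (adjusted p from 0.0283 to 0.753), among them without any 1 of control replicates 1, 2 and 3 (-0.38, -0.30 and -0.31) or TNF-α replicates 1 and 3 (-0.26 and -0.32), without normalization (-0.16) and with median scaling (-0.05). miR-223 was at -0.17 ± 0.07 (adjusted p = 0.148), and its sign turned without normalization (0.03) and with median scaling (0.13). It passed as lower when the authors' deposited table was used (-0.33).

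miR-451 was at 0.19 ± 0.09 (limma adjusted p = 0.186) and miR-126-5p at 0.13 ± 0.10 (adjusted p = 0.397). Both passed as higher without normalization (0.36 and 0.32) and with median scaling (0.47 and 0.43), where the median change of all tested reporters was itself 0.14 and 0.25. miR-142-3p was at -0.05 ± 0.14 (adjusted p = 0.841), and its sign turned without normalization and with median scaling. The 2 markers whose raw densities were all higher with TNF-α, miR-126-5p and miR-451, were among the 38.2% of all reporters of which this held, and 0 markers were lower (4.36%). After subtraction of the peak 0 markers were higher on all TNF-α arrays (11.8% of all reporters) and 2 were lower, miR-142-5p and miR-223 (22.4%). In background SDs 3 were lower, miR-126-3p with them (35.0%), and 0 were higher (8.63%). Which markers had groups that did not overlap thus depended on how the background was treated.

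**Figure D4:**
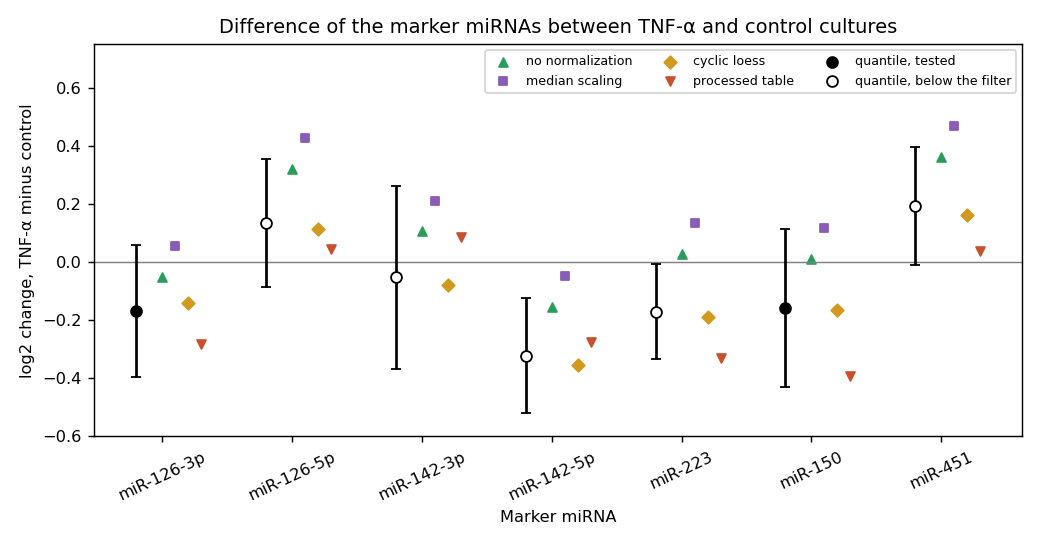
log2 change, TNF-α minus control, of each marker miRNA with quantile normalization (circles with 95% intervals, filled where the reporter was tested and open where it was below the filter) and under 4 other treatments of the values (coloured symbols). Only miR-142-5p and miR-223 have an interval that excludes 0, and only miR-126-5p, miR-142-5p and miR-451 keep their sign under all 4.

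Arms and neighbours of the markers were compared from a list of 10 names, of which 6 were on the arrays. Of these, miR-3067 and miR-3067* had been listed as neighbours by mistake: RefSeq places their gene on chromosome 12 and the marker genes on chromosomes 2, 7, 11 and X. The remaining 4 were miR-144, miR-144*, miR-223* and miR-150*, and the first 3 exceeded the limit on 0 arrays. Of 3 tested reporters of the list, miR-150* fell and miR-3067* rose, against 9.81% and 12.9% of all tested reporters. The third was miR-3067, so miR-150* was the only true arm or neighbour tested. miR-3067* changed by 0.35 ± 0.08 (limma adjusted p = 0.0209). It was above the limit on 1 TNF-α array and no control array, so no fold is given. Its call was lost with control replicate 1 (0.36), 2 (0.34) or 3 (0.33) or TNF-α replicate 2 (0.28) left out.

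miR-150*, the minor arm of the miR-150 hairpin, was the only arm partner above background. Its densities were 106, 118 and 90.1 in controls and 89.2, 96.5 and 82.6 with TNF-α, above the limit on control replicates 1 and 2 and on no TNF-α array. It fell by 0.44 ± 0.08 on the log2 scale (limma adjusted p = 0.00819), but no fold is given, since no TNF-α reading was above background, and the call was lost without normalization (-0.27) and with median scaling (-0.17). Both arms of the miR-150 hairpin had readings above the limit in control cultures only, 1 for miR-150 and 2 for miR-150*. The reading of miR-150 was lost with the limit at 5 SD, the median in place of the peak, or its own SD taken off. With the limit at 2 SD or the peak on the linear scale, 2 control readings passed. TNF-α replicate 3 gave miR-150 a higher density (101) than that control (99.5), but its limit was higher (118 against 95.4).

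Of 14 further names of miRNAs enriched in blood cells, 12 were on the arrays, and 44.4% of their readings exceeded the limit in each group. These names are less specific than the 7, since the miR-181 family and miR-146a are made by many cell types. miR-146a, miR-181a, miR-181b and miR-181c were above the limit on all 6 arrays, and miR-155, made by activated lymphocytes and macrophages, on 0. Of 9 tested, 4 rose and 2 fell, against 12.9% and 9.81% of all tested reporters.

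The members that rose were miR-181c (0.53 ± 0.08, limma adjusted p = 0.00380), miR-486* (0.43 ± 0.08, adjusted p = 0.00819), miR-342-3p (0.41 ± 0.09, adjusted p = 0.0169) and miR-181a (0.39 ± 0.08, adjusted p = 0.0115). miR-181c, whose family tunes T cell receptor signalling, had densities of 163, 187 and 170 in controls and 255, 261 and 238 with TNF-α, with no overlap. These densities include the background, and 38.2% of all reporters were likewise higher on every TNF-α array. As density above the background peak miR-181c also did not overlap, as for 11.8% of all reporters in that direction. miR-486*, the minor arm of a hairpin high in erythroid cells, was at 83.0, 85.2 and 74.8 in controls and at 140, 127 and 107 with TNF-α. It exceeded the limit on TNF-α replicate 1 only, so no fold is given. miR-486* entered the test only through its TNF-α arrays, every control being under the filter of 32, and its place among the 4 that rose rests on that group.

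miR-342-3p, which is encoded within Evl and is high in lymphoid cells, was at 101, 93.4 and 78.8 in controls and at 130, 147 and 123 with TNF-α, above the limit on 1 control array and 3 TNF-α arrays. Its call was lost with the replicate number as a block (0.41) and with control replicate 2 (0.39) or 3 (0.35) left out. That of miR-181a was lost without normalization (0.24), in the authors' deposited table (0.20) and without control replicate 2 (0.38). The call of miR-181c held under each alternative run. That of miR-486* could not be examined with a TNF-α array left out, with peak subtraction or with the stricter filters, since it then dropped below the filter.

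The members that fell were miR-181d (-0.33 ± 0.07, limma adjusted p = 0.0137), above the limit on 3 control arrays and 0 TNF-α arrays, and miR-155 (-0.27 ± 0.07, adjusted p = 0.0279). miR-181d was -0.17 without normalization and -0.06 with median scaling, where it did not pass, and a fold is not stated. The call of miR-155 was lost without normalization (-0.09) and with control replicate 1 (-0.27) or 2 (-0.24) or TNF-α replicate 1 (-0.25) or 3 (-0.26) left out, and its sign turned with median scaling (0.02).

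Likeness of profile was described for miR-126-3p, the only member above the limit on at least 3 arrays. Among the 277 other such reporters, those whose normalized log2 values, centred on their own mean over the 6 arrays, differed least from it were miR-21 (root mean square difference 0.046), miR-32* (0.076) and miR-23a* (0.076). miR-21 was the brightest or next brightest reporter on every array, where quantile normalization leaves only the values 15.12 and 15.39. Its normalized values therefore record its rank, not its density, and its likeness to miR-126-3p has no meaning as a profile. None of the 3 passed the test of TNF-α against control, with log2 changes of -0.18, -0.12 and -0.14 (limma adjusted p = 0.171, 0.277 and 0.266).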

How the data were processed

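The labels state that total RNA was poly(A)-tailed, ligated to an oligonucleotide tag and read on a 1-colour Cy5 array. The deposited file of each array gives a median density and an SD per reporter, linear intensities per the file headers. Background had not been removed: the lowest densities were 44.4 to 54.0. No scanner, software or probe design is given in the sources used here. The authors' deposited table of processed intensities has a floor of 0.01 and medians of 10.4, 11.9 and 10.4 for controls and 12.0, 11.9 and 8.39 for TNF-α; its scaling between arrays stays unknown.

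Densities were corrected by normexp, with 50 added, and the log2 values were quantile normalized (limma 3.58.1, R 4.3.3), then fitted with the group as the only term. P-values were Benjamini-Hochberg adjusted over all reporters tested. The background peak was found on the log2 scale. Alternatives were other scalings, offsets, filters, backgrounds and limits, the processed table with 32 added, a trended robust variance, a block for the replicate number, and leaving out single arrays. The procedure was tested on simulated data in which changes were placed only in reporters brighter than the markers. That simulation cannot show how often a change of a marker would be found. All 7 members were named, and of other lists the called reporters. The rule also covered the 3 of each list most often above the limit, of which not all are printed. Alternatives were run for the members, their arms and neighbours, and the blood cell list only. Members and lists were chosen with earlier results of these data known. Cultures were grown separately per the labels, and the number of arrays limits the precision. TNF-α replicates 2 and 3 are numbered in accession order, since their descriptions give both the same number.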

Additional observations from a re-analysis of the deposited data

How the results depend on the processing

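The 0 marker calls held under every alternative run except the fit with no filter, which called 1, miR-142-5p. With a filter only 1 or 2 markers were tested, and none with the filter at 100, so the rest could not be called. In fits to all reporters, miR-126-5p and miR-451 passed as higher without normalization and with median scaling. There miR-223 passed as lower with the processed table, and miR-142-5p under 4 of 15 alternatives. Of 42 marker readings, 3 to 8 exceeded the background limit under other limits (7.14% to 19.05%, against 14.3%), and with 1 array left out the share was 11.4% to 17.1%. With the limit at 5 SD only the 3 control readings of miR-126-3p remained. With the peak found on the linear scale, a setting chosen after seeing the data, TNF-α replicate 3 also passed for miR-126-3p. The 146 calls over all reporters became 77 when the filter was 100, 291 with median scaling, and 70 to 91 with 1 array left out, where fewer samples were fitted. The cause of the rise with median scaling was not tested. Against 83 higher and 63 lower, the split was 262 and 29 with median scaling, 163 and 41 with none, 39 and 81 from the processed table and 50 and 58 with the filter on all 6 arrays. The median change of tested reporters shifted to 0.25, 0.14 and -0.12 in the first 3 of these. Signs turned as follows. Without normalization they were 0.11 for miR-142-3p, 0.027 for miR-223 and 0.0098 for miR-150. With median scaling they were 0.055 for miR-126-3p, 0.21 for miR-142-3p, 0.13 for miR-223, 0.12 for miR-150 and 0.017 for miR-155. For miR-142-3p the value was 0.087 in the processed table and -0.18 to 0.062 with 1 array left out. With the replicate number as a block 103 reporters and 0 markers passed, and miR-342-3p did not. Same-numbered arrays deviated together only weakly, with correlations of 0.04, 0.02 and 0.15, so the numbers were not taken as pairs, and not every array correlated best with its own number. Signal over background limits every statement on the 5 markers below the limit.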
